A study of Drosophila melanogaster with 22 samples.

Results

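The genes described are those of the secretory pathway and the endoplasmic reticulum (ER) in Drosophila melanogaster S2 cells. They were chosen by a rule on gene symbols, which was set with earlier results of these data known. It took every gene named Srp, Sec, Cog or Alg followed by a number and every gene whose name ends in COP (the coatomer subunits). It also took the ER stress genes Manf, Gp93, Hsc70-3, Ire1, PEK and Atf6. The rule found 51 genes among the 11982 that had a probe set with a single gene symbol. One of them, Cog2, lay below an intensity of 16 on every array and was not tested. The other 50 lay above that floor on all 22 arrays, so no gene entered the tests through 1 group alone. Xbp1, which the rule also names, was not analysed here.

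S2 cells are a cultured line from fly embryos that resembles blood cells. The study depleted the subunits of Mediator's Cdk8 module one at a time. Mediator is the coactivator complex that links transcription factors with RNA polymerase II. Cells received 20 µg of double-stranded RNA (dsRNA), which fly cells use to destroy matching transcripts, and were collected after 72 h, and their messenger RNA was measured on Affymetrix arrays. There were 2 arrays with dsRNA against the kinase Cdk8, and 4 each with dsRNA against its partner Cyclin C (CycC), Med12 (gene kto) and Med13 (gene skd). The controls, 8 arrays in all, were the same cells with dsRNA against GFP (4 arrays) or luciferase (Luc, 4 arrays), reporter genes that fly cells lack. All groups thus had dsRNA of some kind. Nothing in the labels ties the arrays of a group to separate cultures, and p-values here reflect only the spread between arrays, which may be technical.

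Proteins that leave the cell or sit in its membranes start their path at the ER. The signal recognition particle catches the signal peptide as it emerges from the ribosome, the Sec61 channel (the translocon) takes the chain into or across the membrane, and chaperones and sugar-adding enzymes fold and mark it. COPII vesicles carry cargo from the ER to the Golgi, COPI vesicles carry material back, tethering complexes such as COG and the exocyst catch vesicles at their target, and the sensors Ire1, PEK and Atf6 raise chaperone supply or slow protein synthesis when unfolded protein builds up.

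The targeted genes were checked first, as a share of their level in controls. Cdk8 was at 14.4% after Cdk8 dsRNA, CycC at 3.56% after CycC dsRNA, kto at 9.98% after Med12 dsRNA and skd at 80.65% after Med13 dsRNA, all with an adjusted p below the threshold of 0.05 in limma's moderated test. The probe set for skd thus showed little loss of its transcript, and whether it lies inside the dsRNA target was not given in the sources used here. Within groups the lowest correlation between arrays was 0.9960, and 7175 to 7214 probe sets per array lay above the floor. Of 11 markers of plasmatocytes, the fly's macrophage-like blood cells, 10 were above the floor on all control arrays and NimC1 was below it, while lz and PPO2 (crystal cells) and atilla (lamellocytes) were below it in every group. The other markers of those lists, PPO1 (crystal cells) and PPO3 and cher (lamellocytes), were above it on all arrays.

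After Med12 dsRNA most genes of the signal recognition particle, the translocon, the COPII group and the COPI coat fell, and after Cdk8 or CycC dsRNA part of the set rose, by small amounts throughout. After Med12 dsRNA 22 of the 50 genes fell and 4 rose, and the median difference from controls was -0.10 on the log2 scale. That is 44.0% lower calls, where 15.5% of all 5961 genes tested fell and 26.5% rose, with a median of 0.04. After Med13 dsRNA 11 fell and 3 rose, or 22.0% lower calls against 11.2% of all genes (with 21.0% of all genes higher), and a median of -0.03 against 0.03. After Cdk8 dsRNA 9 rose and 0 fell (18.0% higher calls against 10.6% of all genes, with 8.07% of all genes lower), with a median of 0.08 against 0.02. At an unadjusted p under 0.05 the Cdk8 comparison held 21 of the 50 genes, 0 of them lower, where 31.2% of all genes passed in either direction. After CycC dsRNA 14 rose and 1 fell (28.0% higher calls against 13.4% of all genes, with 10.9% lower), with a median of 0.06 against 0.01. These counts rest on limma's moderated test over all 22 arrays with Benjamini-Hochberg adjustment over all genes tested, and the 4 comparisons share the same control arrays.

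Relative to controls no gene of the set moved by more than the 1.26-fold of Sec22. Among genes past the threshold the median size was 0.20 on the log2 scale for Cdk8, 0.15 for CycC, 0.20 for Med12 and 0.14 for Med13, and the largest were 0.33 (Sec22), 0.24 (Cog1), 0.32 (Gp93) and 0.24 (Sec16). For all genes past the threshold the median size was 0.26, 0.21, 0.22 and 0.21 in the same order of knockdowns. The median of limma's moderated SD, pooled over the groups, was 0.0676 for the 50 genes. Counted by overlap alone, every array lay above all 8 controls for 12 genes after Cdk8 dsRNA (15.4% of all genes did so) and for 8 after CycC dsRNA (7.68%). After Med12 dsRNA 13 genes lay below all controls on every array and 1 above (9.63% and 14.7% of all genes), and after Med13 dsRNA 3 lay below (6.48%). The count for Cdk8, with its 2 arrays, is 24% of the set. In these bulk samples fewer cells of a kind and less RNA per cell cannot be told apart.

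The counts for Cdk8 and CycC depended on single arrays and on the choice of control. The 9 rises after Cdk8 dsRNA became 1 (Sec22) without Cdk8 array 1 and 6 without Cdk8 array 2, each time with a lone array assumed to vary like the other groups. The 15 calls after CycC dsRNA became 9 without CycC array 3 and 7 with GFP arrays alone as control, and the 14 after Med13 dsRNA became 8 with Luc arrays alone. In every fit that left out 1 array, 18 of the 22 falls after Med12 dsRNA and 7 of the 11 after Med13 dsRNA were kept, but 2 of the 4 and 0 of the 3 rises.

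**Figure D1:**
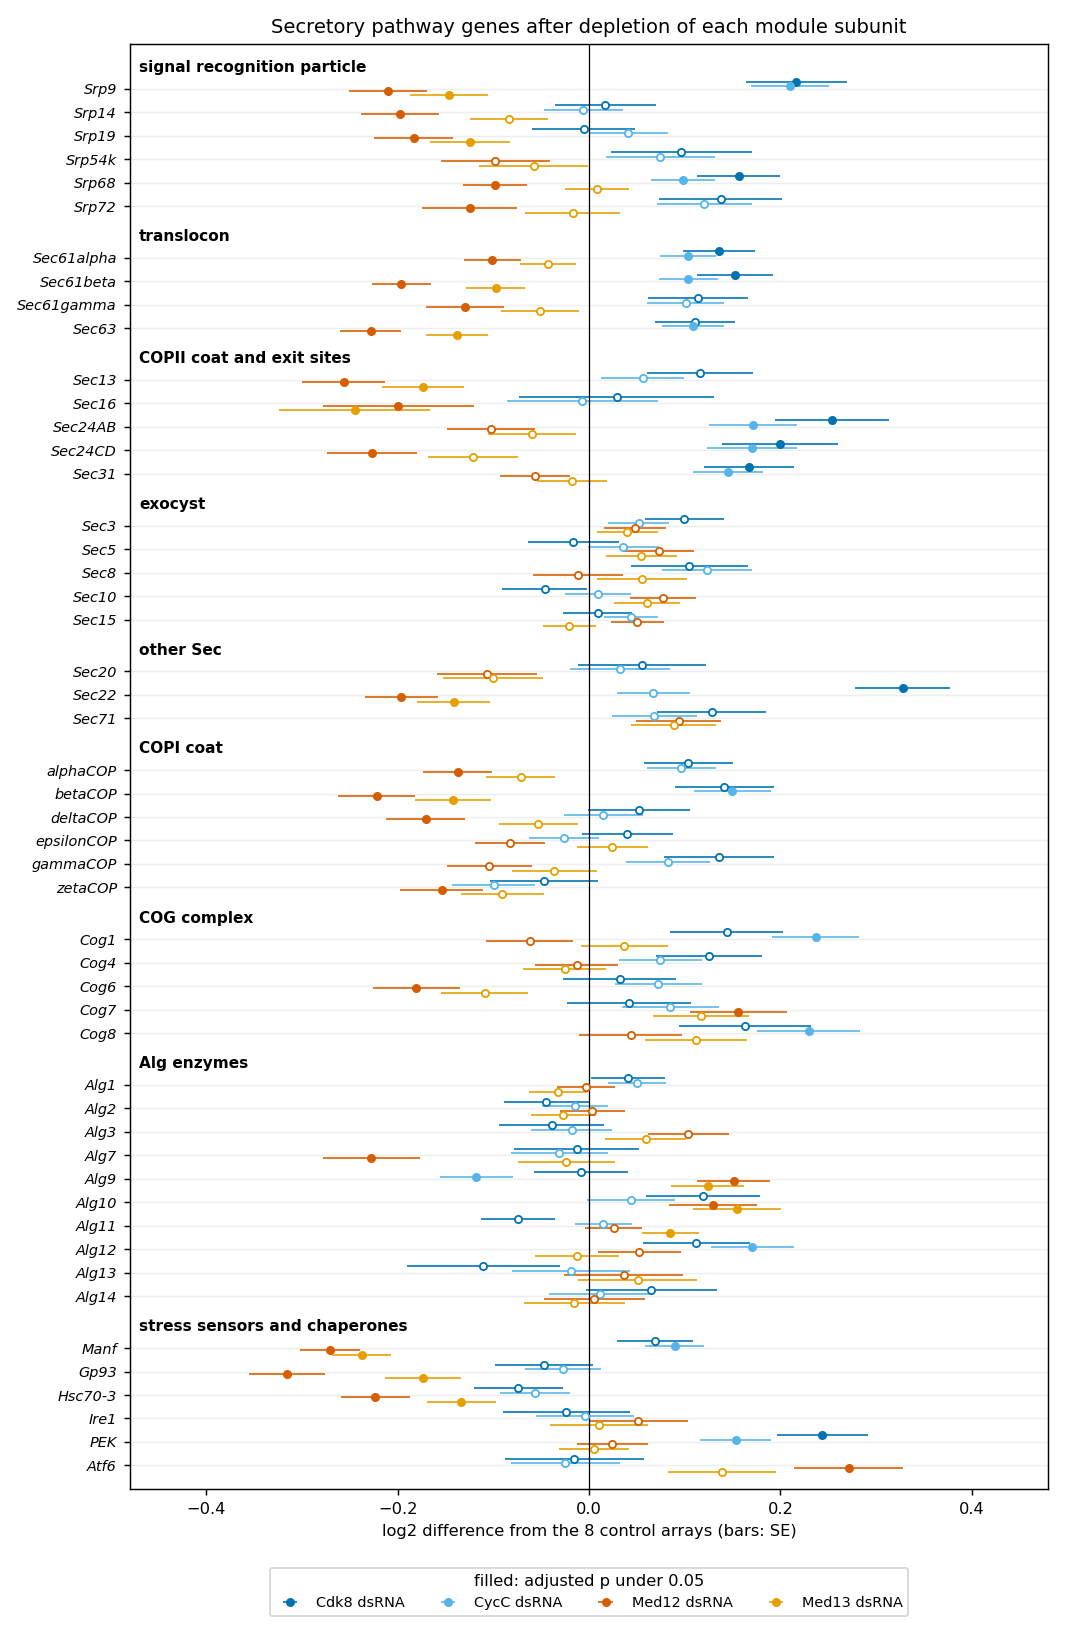
Log2 difference from the 8 control arrays (x axis, bars give the SE) for each of the 50 genes, by role, after Cdk8, CycC, Med12 and Med13 dsRNA; filled points passed an adjusted p of 0.05. The Med12 points lie left of 0 for every gene of the signal recognition particle, translocon, COPII and COPI groups, whether past the threshold or not, with Gp93 farthest left (-0.32) and Atf6 farthest right (0.27).

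The signal recognition particle was lower after Med12 depletion in 5 of its 6 measured subunits, and lower after Med13 depletion in 2. Cdk8 and CycC depletion each raised 2. Over all genes tested 15.5% and 11.2% fell after Med12 and Med13 dsRNA, and 10.6% and 13.4% rose after Cdk8 and CycC dsRNA. Srp9, which in mammals forms with Srp14 the part of the particle that pauses translation, had 10.50 and 10.40 (log2 intensity) with Cdk8 dsRNA. With CycC dsRNA it had 10.47, 10.33, 10.43 and 10.54. With Med12 dsRNA it had 10.07, 10.03, 9.99 and 10.00, with Med13 dsRNA 10.00, 10.16, 10.07 and 10.12, and on the control arrays it ran from 10.13 over a median of 10.23 to 10.30. Every Cdk8 and CycC array thus lay above, and every Med12 array below, all 8 controls, and the Med13 arrays overlapped them at their upper end. The differences from controls were 0.22 ± 0.05 (SE, adjusted p = 0.00592), 0.21 ± 0.04 (adjusted p = 0.000676), -0.21 ± 0.04 (adjusted p = 0.000334) and -0.15 ± 0.04 (adjusted p = 0.00921) in the same order. Without Cdk8 array 1 the first had an adjusted p of 0.159.

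Srp68, which with Srp72 forms the particle's largest protein pair, rose by 0.16 after Cdk8 dsRNA and 0.10 after CycC dsRNA, and fell by 0.10 after Med12 dsRNA. Each of these calls was lost in some fit that left out 1 array, with adjusted p-values up to 0.132, 0.109 and 0.117. Srp14, the partner of Srp9, and Srp19, known from mammals to help assemble the particle on its RNA, fell by 0.20 and 0.18 on the log2 scale after Med12 dsRNA, where their differences for Cdk8 (0.02 and -0.01) and CycC (-0.01 and 0.04) did not pass the test. Srp19 also fell by 0.12 after Med13 dsRNA (adjusted p = 0.026), a call lost without Med13 array 1, 3 or 4 (adjusted p up to 0.0786). Srp72 fell after Med12 dsRNA only just past the threshold (adjusted p = 0.0488), and 15 of the 22 fits without 1 array lost it. Srp54k, the GTPase that holds the signal peptide, passed in no knockdown.

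All 4 translocon genes fell after Med12 depletion, 2 after Med13 depletion, and 2 and 3 rose after Cdk8 and CycC depletion. Among all genes tested the falls made up 15.5% (Med12) and 11.2% (Med13), and the rises 10.6% (Cdk8) and 13.4% (CycC). Sec61beta, a small subunit of the channel, had 14.14 and 14.10 with Cdk8 dsRNA and 14.05, 14.01, 14.08 and 14.14 with CycC dsRNA. It had 13.82, 13.75, 13.71 and 13.79 with Med12 dsRNA, 13.82, 13.84, 13.92 and 13.89 with Med13 dsRNA, and from 13.92 over 13.97 to 14.01 on control arrays. None of the 4 knockdowns overlapped the controls, with the first pair above and the second below, but for CycC and Med13 the arrays all but touched. The lowest CycC array was at 14.0091 against a highest control of 14.0065. The highest Med13 array was at 13.9214 against a lowest control of 13.9215. The differences were 0.15 ± 0.04 (adjusted p = 0.00964) for Cdk8, 0.10 ± 0.03 (adjusted p = 0.017) for CycC, -0.20 ± 0.03 (adjusted p = 3.26e-05) for Med12 and -0.10 ± 0.03 (adjusted p = 0.019) for Med13. Only the Med12 call was kept in every fit without 1 array, and the other 3 had adjusted p-values up to 0.153, 0.0891 and 0.0742.

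Sec63, the membrane partner that in yeast recruits the lumenal Hsp70 chaperone to the channel, lay below all controls on each Med12 array (11.80, 11.70, 11.74 and 11.67) and each Med13 array (11.77, 11.77, 11.90 and 11.84), against 11.92 to 12.01 on controls. It fell by 0.23 ± 0.03 after Med12 dsRNA (adjusted p = 1e-05) and by 0.14 ± 0.03 after Med13 dsRNA (adjusted p = 0.00252). Sec61alpha, the channel itself, rose by 0.14 and 0.10 after Cdk8 and CycC dsRNA and fell by 0.10 after Med12 dsRNA. The first rise was lost without either Cdk8 array and the second without CycC array 3. Sec61gamma fell by 0.13 after Med12 dsRNA, a call lost without Med12 array 3 (adjusted p = 0.062), after quantile normalization and with Luc arrays alone as control (adjusted p up to 0.146).

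In the COPII group, 3 of 5 genes rose after Cdk8 and after CycC depletion, 3 fell after Med12 depletion and 2 after Med13 depletion. The shares of all genes tested were 10.6% and 13.4% for those rises and 15.5% and 11.2% for those falls. Sec24CD, one of the fly's cargo adaptors of the inner coat, had 11.14 and 11.14 with Cdk8 dsRNA and 11.02, 11.06, 11.19 and 11.18 with CycC dsRNA. It had 10.73, 10.73, 10.76 and 10.63 with Med12 dsRNA, 10.71, 10.80, 10.84 and 10.93 with Med13 dsRNA, and from 10.80 over 10.95 to 11.03 on control arrays. The Cdk8 arrays lay above and the Med12 arrays below all controls, and the CycC and Med13 arrays overlapped them. It rose by 0.20 ± 0.06 (adjusted p = 0.0252) and 0.17 ± 0.05 (adjusted p = 0.0108) after Cdk8 and CycC dsRNA and fell by 0.23 ± 0.05 (adjusted p = 0.00061) after Med12 dsRNA, while -0.12 ± 0.05 after Med13 dsRNA did not pass (adjusted p = 0.0532). The Cdk8 call was lost without either Cdk8 array and the CycC call without CycC array 3 (adjusted p up to 0.167 and 0.0544).

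The other members of the group gave calls in different knockdowns. Sec24AB, the second cargo adaptor, and Sec31, a part of the outer cage, rose after Cdk8 dsRNA (0.25 and 0.17) and CycC dsRNA (0.17 and 0.15), and did not pass the test after Med12 dsRNA (-0.10 and -0.06) or Med13 dsRNA (-0.06 and -0.02). Sec13, which forms the cage with Sec31, fell by 0.26 ± 0.04 after Med12 dsRNA (adjusted p = 7.49e-05) and by 0.17 ± 0.04 after Med13 dsRNA (adjusted p = 0.00399), and its values of 0.12 and 0.06 for Cdk8 and CycC did not pass. Sec16, a scaffold of the sites where COPII vesicles form, was -0.20 and -0.24 relative to controls after Med12 and Med13 dsRNA (SE 0.08 each), and 17 of the 22 fits without 1 array lost the Med12 call. Without Med13 array 2 or 3 the Med13 call was lost too (adjusted p up to 0.132). Without Cdk8 array 1 neither rise of Sec24AB nor Sec31 for Cdk8 passed, with adjusted p-values of 0.0818 and 0.249.

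The 3 remaining Sec genes serve vesicle traffic at the ER and the Golgi. Sec22, a SNARE protein of ER-to-Golgi vesicles, held the largest rise of the set. It had 11.32 and 11.34 with Cdk8 dsRNA and 11.03, 11.14, 11.11 and 11.00 with CycC dsRNA. It had 10.85, 10.84, 10.79 and 10.76 with Med12 dsRNA, 10.88, 10.81, 10.82 and 10.95 with Med13 dsRNA, and from 10.91 over 11.01 to 11.07 on control arrays. Both Cdk8 arrays lay above every other array of the study, and the CycC arrays overlapped the controls. It rose to 126% of the control level after Cdk8 dsRNA (0.33 ± 0.05, adjusted p = 6.4e-05), kept in every fit without 1 array, and fell by 0.20 ± 0.04 after Med12 dsRNA (adjusted p = 0.000366) and by 0.14 ± 0.04 after Med13 dsRNA (adjusted p = 0.00767). After CycC dsRNA the difference was 0.07 ± 0.04 (adjusted p = 0.226). The direct comparison of Cdk8 with CycC gave 0.26 ± 0.05 and did not pass (adjusted p = 0.0819), but passed in 3 other settings of the analysis. Sec20, a SNARE of the return path, and Sec71, which activates Arf GTPases at the Golgi, passed in no knockdown.

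**Figure D2:**
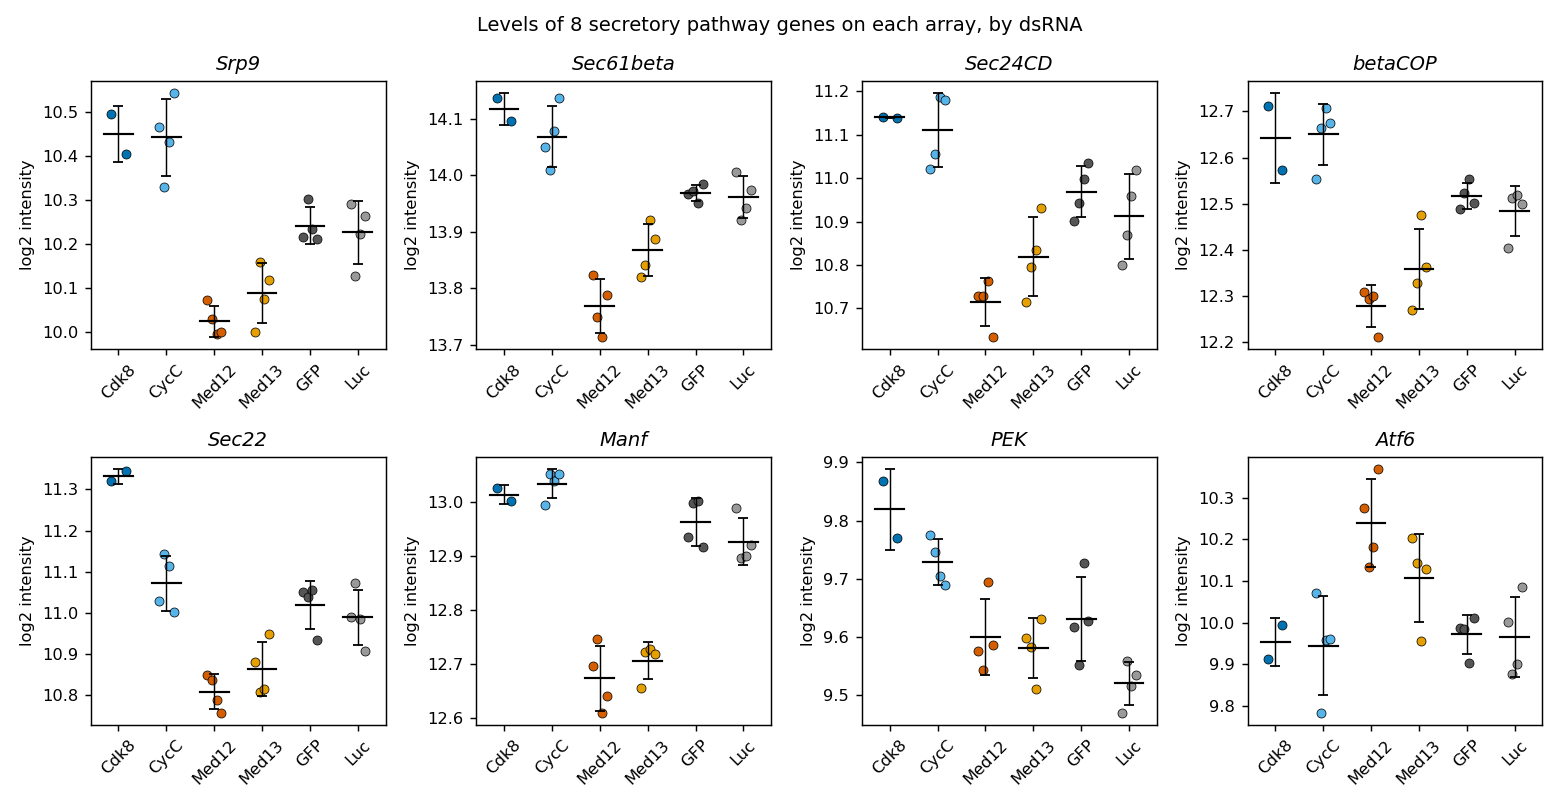
Log2 intensity on each array (points; bars give the mean and SD) for 8 genes of the pathway, with the 4 knockdowns left of the GFP and Luc controls. Srp9 lies at 9.99 to 10.07 on the Med12 arrays against 10.13 to 10.30 on controls, Sec22 at 11.32 and 11.34 on the Cdk8 arrays, and Atf6 at 10.13 to 10.37 on the Med12 arrays.

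The coatomer of COPI vesicles was lower in 4 of its 6 subunits after Med12 depletion and in 1 after Med13 depletion. After CycC depletion 1 subunit, betaCOP, was higher. A single call is 16.67% of the 6, near the 11.2% of all genes lower after Med13 and the 13.4% higher after CycC dsRNA. After Med12 dsRNA 15.5% of all genes were lower. betaCOP had 12.71 and 12.57 with Cdk8 dsRNA and 12.55, 12.66, 12.71 and 12.68 with CycC dsRNA. It had 12.31, 12.29, 12.30 and 12.21 with Med12 dsRNA, 12.27, 12.33, 12.48 and 12.36 with Med13 dsRNA, and from 12.40 over 12.51 to 12.55 on control arrays. The Cdk8 and CycC arrays lay above and the Med12 arrays below all controls, with 1 Med13 array inside their range. The CycC arrays all but touched the controls, with the lowest at 12.5545 against a highest control of 12.5539. The differences were 0.14 ± 0.05 for Cdk8, which did not pass (adjusted p = 0.0625), 0.15 ± 0.04 for CycC (adjusted p = 0.00903), -0.22 ± 0.04 for Med12 (adjusted p = 0.00016) and -0.14 ± 0.04 for Med13 (adjusted p = 0.00977, or 0.0535 without Med13 array 1). alphaCOP, deltaCOP and zetaCOP fell by 0.14, 0.17 and 0.15 after Med12 dsRNA, whereas epsilonCOP (-0.08) and gammaCOP (-0.10) did not pass. With Luc arrays alone as control the calls of deltaCOP and zetaCOP were lost (adjusted p = 0.0601 and 0.0722).

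The exocyst genes of the set gave no call against controls, and the COG genes gave 4. Of the 5 exocyst genes, Sec3, Sec5, Sec8, Sec10 and Sec15, which bring secretory vesicles to the plasma membrane, 0 passed limma's test in any of the 4 knockdowns, where 18.7% (Cdk8), 24.2% (CycC), 41.9% (Med12) and 32.2% (Med13) of all genes tested did. Their differences from controls lay between -0.05 and 0.12, and at an unadjusted p under 0.05 there was 1 gene each for Cdk8, CycC and Med12 and 0 for Med13 (31.2%, 35.0%, 50.1% and 41.4% of all genes tested in the same order). The other 2 measured subunits, which lie outside the set, gave calls: Exo84 rose by 0.14 and 0.11 after Cdk8 and CycC dsRNA, and Exo70 by 0.11 after Med13 dsRNA. The Exo84 call for Cdk8 was lost after quantile normalization and with GFP arrays alone as control. In the COG tether of the Golgi, Cog1 and Cog8 rose after CycC dsRNA (0.24 ± 0.05, adjusted p = 0.000592, and 0.23 ± 0.05, adjusted p = 0.00327). After Med12 dsRNA Cog6 fell by 0.18 ± 0.05 and Cog7 rose by 0.16 ± 0.05, a rise that was lost without Med12 array 1 (adjusted p = 0.0738). That is 2 of 5 COG genes called in each of these knockdowns (40.0%), where 24.2% (CycC) and 41.9% (Med12) of all genes were.

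The Alg enzymes assemble the lipid-linked sugar that is passed to proteins in the ER. Of the 10 measured, 2 rose and 1 fell after Med12 depletion, 3 rose after Med13 depletion, and 1 rose and 1 fell after CycC depletion. That is 30% called for Med12, 30% for Med13 and 20% for CycC. Of all genes tested 41.9%, 32.2% and 24.2% were called in the same order, so the Alg shares lay below those of all genes. Alg7, which adds the first sugar, fell by 0.23 ± 0.05 after Med12 dsRNA (adjusted p = 0.00118), against -0.02 ± 0.05 after Med13 dsRNA (adjusted p = 0.754). The direct comparison of Med12 with Med13 gave -0.20 ± 0.06 and did not pass (adjusted p = 0.129). Alg9, a mannosyltransferase, had 11.34 and 11.30 with Cdk8 dsRNA, 11.23, 11.17, 11.20 and 11.26 with CycC dsRNA, 11.53, 11.49, 11.40 and 11.52 with Med12 dsRNA, and 11.44, 11.43, 11.44 and 11.51 with Med13 dsRNA, against 11.23 over 11.34 to 11.45 on control arrays. Every group overlapped the controls. It rose by 0.15 ± 0.04 after Med12 dsRNA (adjusted p = 0.00321) and by 0.12 ± 0.04 after Med13 dsRNA (adjusted p = 0.0167, or 0.0663 without Med13 array 4), and fell by 0.12 ± 0.04 after CycC dsRNA (adjusted p = 0.0284, lost without CycC array 2, CycC array 3 or GFP array 1). Alg10, the last glucosyltransferase, rose by 0.13 and 0.15 after Med12 and Med13 dsRNA, and Alg11, which adds mannose on the outer face of the ER, by 0.09 after Med13 dsRNA. None of these 3 calls was kept in every fit without 1 array, with adjusted p-values up to 0.0743, 0.0785 and 0.11. Alg12, another mannosyltransferase, rose by 0.17 ± 0.04 after CycC dsRNA (adjusted p = 0.00666).

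Of the 6 ER chaperones and stress sensors, 3 fell and 1 rose after Med12 depletion, 3 fell after Med13 depletion, and 1 and 2 rose after Cdk8 and CycC depletion. For all genes tested 15.5% fell and 26.5% rose after Med12 dsRNA, and 11.2% fell after Med13 dsRNA. Rises made up 10.6% of all genes for Cdk8 and 13.4% for CycC. Manf, a small ER protein that is also secreted and supports neurons, had 12.70, 12.75, 12.61 and 12.64 with Med12 dsRNA and 12.66, 12.72, 12.73 and 12.72 with Med13 dsRNA, against 12.90 over 12.93 to 13.00 on control arrays. All 8 of those knockdown arrays lay below all 8 controls. It fell by 0.27 ± 0.03 (adjusted p = 6.2e-07) and 0.24 ± 0.03 (adjusted p = 4.99e-06), which left 82.9% and 84.8% of the control level. Its values of 13.03 and 13.00 with Cdk8 dsRNA and 12.99, 13.05, 13.04 and 13.05 with CycC dsRNA overlapped the controls. The CycC difference of 0.09 ± 0.03 passed (adjusted p = 0.0403) but was lost in 8 of 22 fits without 1 array.

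Gp93, the fly counterpart of the chaperone GRP94, had 13.36, 13.42, 13.34 and 13.30 with Med12 dsRNA and 13.42, 13.48, 13.59 and 13.50 with Med13 dsRNA, against 13.57 over 13.67 to 13.74 on control arrays. The Med12 arrays lay below all controls, and 1 Med13 array overlapped them. It fell to 80.3% of controls after Med12 dsRNA (-0.32 ± 0.04, adjusted p = 2.23e-06) and to 88.7% after Med13 dsRNA (-0.17 ± 0.04, adjusted p = 0.00211). Hsc70-3, the fly BiP and main chaperone of the lumen, fell by 0.22 ± 0.04 after Med12 dsRNA (adjusted p = 4.93e-05) and by 0.13 ± 0.04 after Med13 dsRNA (adjusted p = 0.00749, or 0.0656 with Luc arrays alone as control). Neither passed after Cdk8 or CycC dsRNA, where the differences were -0.05 and -0.03 for Gp93 and -0.07 and -0.06 for Hsc70-3.

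The 3 sensors gave different calls. PEK, the kinase that slows translation under ER stress, had 9.87 and 9.77 with Cdk8 dsRNA and 9.78, 9.75, 9.70 and 9.69 with CycC dsRNA, against 9.47 over 9.56 to 9.73 on control arrays. The Cdk8 arrays lay above all controls and the CycC arrays overlapped them. It rose by 0.24 ± 0.05 (adjusted p = 0.000948, or 0.0632 without Cdk8 array 1) and 0.15 ± 0.04 (adjusted p = 0.00432), and had 0.02 ± 0.04 and 0.01 ± 0.04 after Med12 and Med13 dsRNA. For CycC the call was lost when GFP arrays alone served as control (adjusted p = 0.125).

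Atf6, a membrane-bound transcription factor that is released by cleavage in the Golgi, had 10.28, 10.13, 10.18 and 10.37 with Med12 dsRNA and 10.20, 10.14, 9.96 and 10.13 with Med13 dsRNA, against 9.88 over 9.99 to 10.09 on control arrays. The Med12 arrays lay above all controls and 1 Med13 array did not. It rose by 0.27 ± 0.06 after Med12 dsRNA (adjusted p = 0.000643), and 0.14 ± 0.06 after Med13 dsRNA did not pass (adjusted p = 0.0659). Ire1, the sensor that splices the Xbp1 transcript, differed from controls by -0.02, -0.00, 0.05 and 0.01 after Cdk8, CycC, Med12 and Med13 dsRNA and passed in none, and its second probe set gave no call either.

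The Med12-Med13 pair was then set against the Cdk8-CycC pair, a comparison in which the control means drop out. The control arrays still entered the shared estimate of spread. Here 29 of the 50 genes were lower in the Med12-Med13 pair and 5 were higher, or 58% lower calls. Of all genes tested 49.1% passed, 22.2% as lower and 26.9% as higher. The median difference was -0.15 for the set and 0.01 for all genes. All 6 signal recognition particle genes, all 4 translocon genes and all 5 COPII genes were lower, as were 4 of 6 coatomer subunits and 3 of 5 COG genes. Of the Alg enzymes 3 were higher and 1 lower, and of the exocyst Sec10 was higher. Every array of one pair lay beyond every array of the other for 16 lower genes and 1 higher gene (Alg9), where 9.93% and 13.0% of all genes tested did so. Of the 29 falls 24 were kept in every fit without 1 array, and all those lost turned on a Cdk8 array, with adjusted p-values up to 0.127.

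The largest differences between the pairs were those of Srp9, Sec22, Sec24CD, Manf and betaCOP. Srp9 lay between 9.99 and 10.16 in the Med12-Med13 pair and between 10.33 and 10.54 in the Cdk8-CycC pair. The difference was -0.39 ± 0.04 (adjusted p = 2.97e-08), or 76.2% of the level in the Cdk8-CycC pair. Both sides contributed to it, with 0.22 and 0.21 relative to controls for Cdk8 and CycC, and -0.21 and -0.15 for Med12 and Med13. Sec22 differed by -0.37 ± 0.04 (adjusted p = 3.22e-08), Sec24CD by -0.36 ± 0.04 (adjusted p = 7.02e-07), Manf by -0.33 ± 0.03 (adjusted p = 5.06e-09) and betaCOP by -0.33 ± 0.04 (adjusted p = 2.92e-07). In the other direction stood Atf6 with 0.23 ± 0.05 (adjusted p = 0.00115), Alg9 with 0.20 ± 0.03 (adjusted p = 7.51e-05), Alg3 with 0.11 and Alg11 and Sec10 with 0.09 each. The call of Alg3 was lost without either Cdk8 array, that of Alg11 without Cdk8 array 1 and that of Sec10 without Cdk8 array 2 or Med12 array 2 (adjusted p up to 0.0754, 0.0968 and 0.222).

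**Figure D3:**
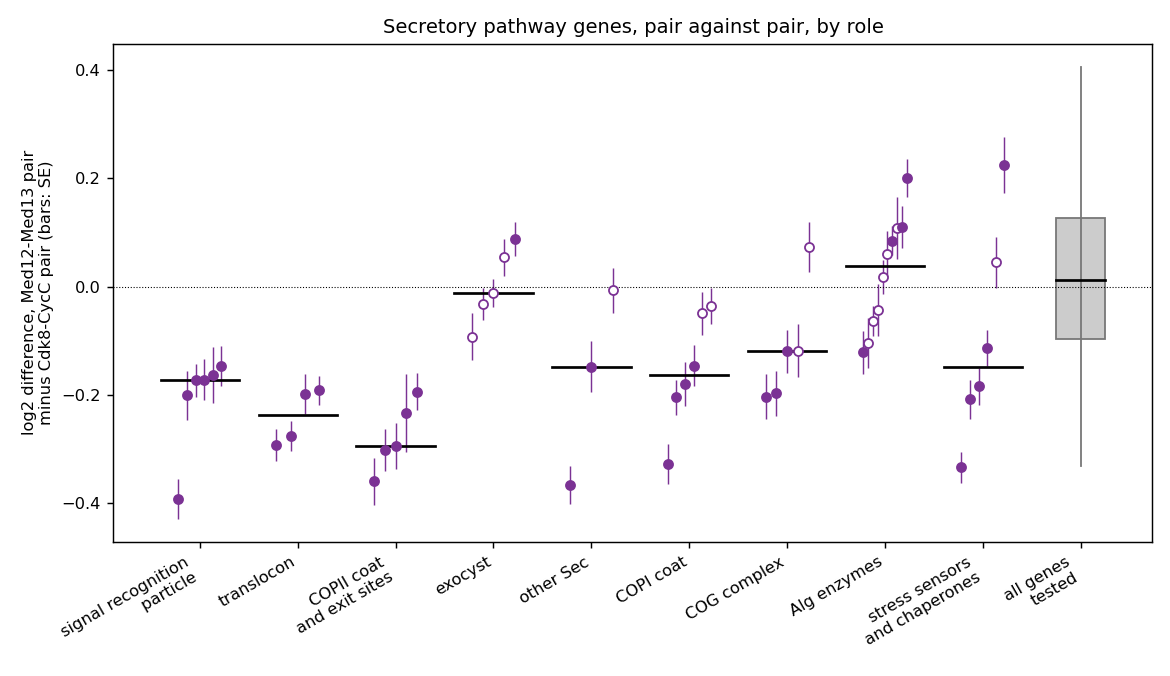
Log2 difference of the Med12-Med13 pair minus the Cdk8-CycC pair (y axis, bars give the SE) for each gene by role, with the role's median as a line; filled points passed an adjusted p of 0.05, and the box gives the quartiles of all 5961 genes tested. The medians are lowest for the COPII genes (-0.29) and the translocon (-0.24), against 0.04 for the Alg enzymes and -0.01 for the exocyst.

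Within each pair no gene of the set passed. Med12 against Med13 gave 0 calls by limma, where 0.872% of all genes tested passed (10 genes at an unadjusted p under 0.05, against 11.1% of all genes), and the largest differences, such as -0.20 for Alg7 and -0.14 for Gp93, did not reach the threshold. Cdk8 against CycC gave 0 calls where 0.101% of all genes passed (2 at an unadjusted p, against 4.86%), and GFP against Luc gave 0 where 0.0336% passed (4 at an unadjusted p, against 5.55%). The transcript of skd was lowered little and Cdk8 had 2 arrays, and these counts do not show that the members of a pair acted alike.

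How the arrays are scaled bears on the Med13 and CycC counts. With each array centred on the median of the tested genes, a setting chosen after the data were seen, the 11 falls and 3 rises after Med13 dsRNA became 18 and 1, and for all genes tested the share of higher calls became 50.9% in place of 65.1%. With each array centred on its own median instead, the 14 rises and 1 fall after CycC dsRNA became 9 and 1. No call of the 50 genes changed sign under any setting.

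Alongside the secretory genes, markers of plasmatocytes also fell. Of the 10 such markers tested, 8 fell after Med12 dsRNA and 6 after Med13 dsRNA, with 0 rises in both, where 15.5% and 11.2% of all genes tested fell. After Cdk8 and CycC dsRNA 2 rose each, where 10.6% and 13.4% of all genes did, and 2 and 3 fell. The crystal cell marker PPO1 fell by 0.51 and 0.49 after Med12 and Med13 dsRNA and rose by 0.56 after CycC dsRNA. Of the lamellocyte markers, PPO3 fell in all 4 knockdowns, by 0.48 (Cdk8), 0.42 (CycC), 0.24 (Med12) and 0.20 (Med13), and cher rose by 0.23 after CycC dsRNA and passed in no other knockdown. The summed intensity of the 11 plasmatocyte markers was 64955 to 67713 on Med12 arrays and 69495 to 74075 on Med13 arrays. It was 80038 to 81284 on Cdk8 and 76660 to 79283 on CycC arrays, against 74882 to 78197 on GFP and 73918 to 80479 on Luc arrays. On this linear scale the brightest markers, vkg and Col4a1 (log2 medians of 15.26 and 14.07 on GFP arrays), weigh most and dim ones hardly count. He, a surface marker of haemocytes, was below the floor on all 4 Med12 arrays and 3 of 4 Med13 arrays and above it on all other arrays. Pxn, a matrix peroxidase, rose by 1.15 and 1.27 after Cdk8 and CycC dsRNA. Its log2 medians were 8.67 on Med12 and 8.32 on Med13 arrays, against 9.70 on GFP and 9.33 on Luc arrays. The marker eater went the other way from Pxn after Cdk8 and CycC dsRNA, with differences of -0.51 and -0.59. The part of these markers in the results for the secretory genes was not tested.

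Other genes of the pathway, from 9 lists of ER and Golgi genes with 65 measured members in all, were compared in the same fit. After Med12 dsRNA 29 of the 65 fell and 8 rose, and after Med13 dsRNA 18 fell and 8 rose. After Cdk8 dsRNA 7 rose and 0 fell, and after CycC dsRNA 11 rose and 2 fell. For the Med12-Med13 pair against the Cdk8-CycC pair 40 fell and 11 rose. In the same order of comparisons 15.5%, 11.2%, 8.07%, 10.9% and 22.2% of all genes tested fell, and 26.5%, 21.0%, 10.6%, 13.4% and 26.9% rose. The rises among the 65 genes were 12.31%, 12.31%, 10.77%, 16.92% and 16.92%, so that the share for Cdk8 lay near that of all genes and those for Med12, Med13 and the pairs below it.

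The ER folding list fell in 6 of 9 genes after Med12 dsRNA and 3 after Med13 dsRNA. Of all genes tested 15.5% and 11.2% fell in the same order. All 9 were lower in the Med12-Med13 pair than in the Cdk8-CycC pair, a comparison in which 49.1% of all genes passed, 22.2% as lower. CaBP1, a disulphide-forming enzyme, fell by 0.30 ± 0.03 (adjusted p = 2.33e-07) and 0.20 ± 0.03 (adjusted p = 8.58e-05) after Med12 and Med13 dsRNA. Sil1, which recharges Hsc70-3 with ATP, fell by 0.23 ± 0.04 and 0.19 ± 0.04. P58IPK, an ER J-domain co-chaperone in the list of stress regulators, fell more than any of the 50 genes, to 73.8% of controls after Med12 dsRNA (-0.44 ± 0.03, adjusted p = 3.27e-09) and 80.0% after Med13 dsRNA (-0.32 ± 0.03, adjusted p = 3.78e-07). Its Cdk8 and CycC differences of -0.04 and -0.06 did not pass.

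Of the 10 measured genes of ER-associated degradation, the removal of misfolded proteins to the proteasome, 4 fell after Med12 and 4 after Med13 dsRNA. After Cdk8 or CycC dsRNA 0 passed limma's test (2 and 3 at an unadjusted p under 0.05). Of all genes tested 18.7% (Cdk8), 24.2% (CycC), 41.9% (Med12) and 32.2% (Med13) were called in either direction. At an unadjusted p under 0.05, 31.2% and 35.0% passed for Cdk8 and CycC. Falls alone made up 15.5% of all genes after Med12 and 11.2% after Med13 dsRNA. Der-1, a channel component, fell by 0.35 ± 0.03 (adjusted p = 3.27e-08) and 0.26 ± 0.03 (adjusted p = 3.9e-06), and Herp, an organiser of the same complex, by 0.29 ± 0.05 (adjusted p = 7.28e-05) and 0.25 ± 0.05 (adjusted p = 0.000379). Among the partners of the translocon and the signal peptidase, 5 of 7 fell after Med12 and 4 after Med13 dsRNA. TRAM, which helps chains enter the membrane, rose by 0.33 ± 0.04 after Cdk8 dsRNA (adjusted p = 2.63e-06) and 0.27 ± 0.03 after CycC dsRNA (adjusted p = 7.44e-07), and its Med12 and Med13 differences of -0.00 and 0.05 did not pass.

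Of the 4 oligosaccharyltransferase genes, whose products transfer the sugar built by the Alg enzymes, 3 fell after Med12 dsRNA and 1 after Med13 dsRNA. At the exit from the ER, 5 of 8 genes fell and 1 rose after Med12 dsRNA, and 3 fell and 1 rose after Med13 dsRNA. Tango1, which loads bulky cargo into COPII carriers, rose after Cdk8 and CycC dsRNA (0.15 and 0.13, adjusted p up to 0.329 and 0.0583 without 1 array) and fell after Med12 and Med13 dsRNA (by 0.25 and 0.18). At the Golgi, 5 of 12 fell and 1 rose after Med12 dsRNA, and 2 fell and 1 rose after Med13 dsRNA. After CycC dsRNA 4 of the 12 rose and 1 fell, and after Cdk8 dsRNA 1 rose. Of all genes tested 15.5% fell and 26.5% rose after Med12 dsRNA, and 11.2% fell and 21.0% rose after Med13 dsRNA. The shares of rises were 13.4% for CycC and 10.6% for Cdk8, and 10.9% fell after CycC dsRNA. Single rises among the 8 or 12 genes after Med12 or Med13 dsRNA thus lay below the all-gene shares. Membrin, a SNARE of the ER-to-Golgi step, differed by -0.40 ± 0.04 between the pairs (adjusted p = 2.2e-08), and GM130, a matrix protein of the Golgi's entry face, by -0.36 ± 0.04 (adjusted p = 6.56e-08).

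Part of the TRAPP complex and of the stress regulators rose. In the TRAPP complex, a vesicle tether, 3 of 7 genes (Trs31, Trs23 and Bet5) rose after Med12 dsRNA by 0.15, 0.11 and 0.23 and after Med13 dsRNA by 0.11, 0.10 and 0.13, with 0 falls. Over all genes tested 26.5% rose after Med12 dsRNA and 21.0% after Med13 dsRNA. The rise of Trs23 after Med12 dsRNA was lost without Med12 array 1 (adjusted p = 0.076). All 3 Med13 calls were lost in 7 or more of 22 fits without 1 array and under tested-gene centring. Among stress regulators, crc, the fly ATF4 that acts below PEK, rose by 0.16 ± 0.04 (adjusted p = 0.00127) and 0.18 ± 0.04 (adjusted p = 0.000957) after Med12 and Med13 dsRNA. Gcn2, the kinase that shares its target with PEK but senses amino acid shortage, rose by 0.25 ± 0.05 (adjusted p = 0.000308) and 0.17 ± 0.05 (adjusted p = 0.01, or 0.0596 without Med13 array 1).

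**Figure D4:**
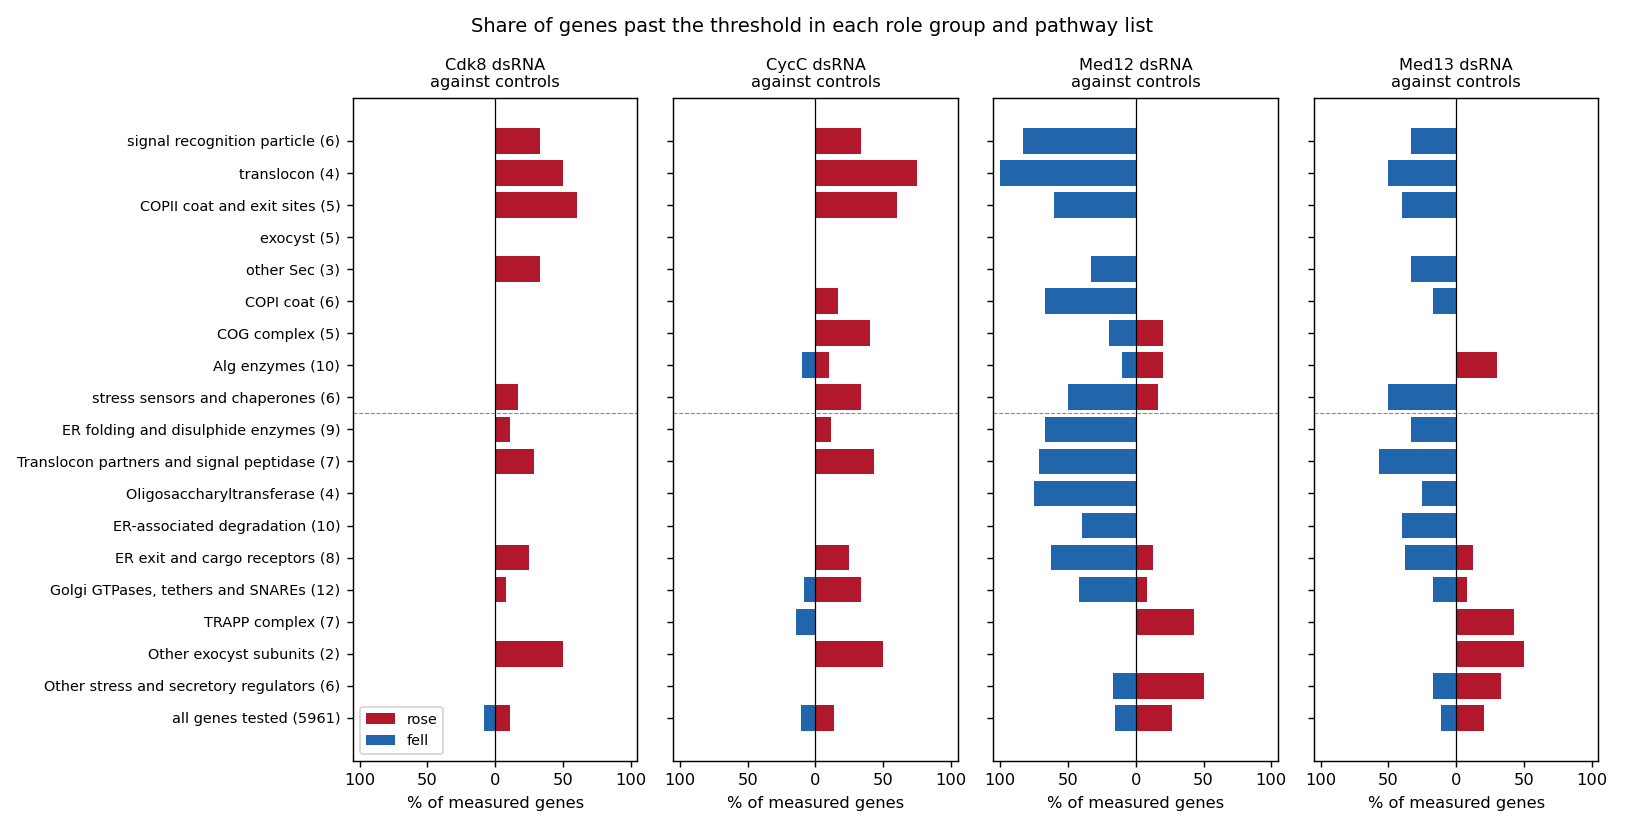
Share of measured genes (x axis, %) that rose (right) or fell (left) past an adjusted p of 0.05 in each of the 4 knockdowns, for the 9 role groups above the dashed line, the 9 other lists below it and all 5961 genes tested at the bottom. In the Med12 panel all 4 translocon genes and 5 of 6 signal recognition particle genes fell and 3 of 7 TRAPP genes rose; numbers of genes stand in brackets.

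Position in the genome was not part of the choice. In the gene table used here, on the Release 6 fly assembly, 3 pairs of the genes lie near each other: Sec61alpha and epsilonCOP on 2L with 2 protein-coding genes between them, Sec63 and Srp19 on 3L with 3, and Srp14 and Srp72 on 3R with 3. Sec61alpha rose after Cdk8 and CycC dsRNA while epsilonCOP passed in no knockdown, and Sec63 and Srp19 both fell after Med12 and Med13 dsRNA. Of the 50 genes, 33 passed the F-test over the 4 knockdowns (66%, against 54.5% of all genes tested). A count of 17 passed in none of the 4 comparisons with controls, given here without the share of all genes.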

How the data were processed

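Messenger RNA was measured on 22 Affymetrix arrays, each hybridised with biotin-labelled RNA, per the labels. The deposited values were 1 intensity per probe set on a linear scale, made by the authors with GCRMA, which corrects background by probe sequence, normalizes arrays to each other and summarises probes, per the submitters' processing notes. The GCRMA version was not given in the sources used here. GCRMA pulls weak probes to a common low value, and normalization hides a shift of all transcripts.

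The log2 of each value was taken. Of 18952 probe sets, 183 controls were left out. Probe sets needed a log2 of 4 or more (intensity 16) on at least 2 arrays, and the set with the highest mean over all arrays stood for its gene. A model with 1 mean per dsRNA group was fitted to 5961 genes with limma 3.58.1 in R 4.3.3 (lmFit, eBayes, 16 residual degrees of freedom), tested on simulated data. Each knockdown was compared with both control groups at equal weight. Tests were two-sided with Benjamini-Hochberg adjustment over all genes and a threshold of 0.05. Precision is limited by the number of arrays.

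The genes and lists were chosen with earlier results of these data known. Named were, per comparison, the 4 largest rises and falls past the threshold, the 7 stress genes the rule lists, the 3 smallest F-test p-values per role and per list, and the 4 targeted genes; others are named for a small count or to describe a role group, chosen after their values were seen. Alternatives covered scaling, filters, probe choice, array weights, a mean-variance trend, the replicate block, the choice of control and leaving out each array.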

Additional observations from a re-analysis of the deposited data

Results flagged for a closer look

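Among 300 groups of arrays looked at over the 50 genes (the 5 dsRNA groups of 4 arrays and the 8 controls together), 12 held an array that lay far from the others by Dixon's test. Chance alone gives about 1 in 20. On the log2 scale, Sec31 was at 12.20 on Med12 array 4 against 12.35 to 12.36 on the other Med12 arrays. The same array was low for betaCOP, at 12.21 against 12.29 to 12.31. Cog8 was at 7.98 on Med12 array 2 against 8.11 to 8.12. Manf was at 12.66 on Med13 array 1 against 12.72 to 12.73, and Alg9 at 11.51 on Med13 array 4 against 11.43 to 11.44. Sec16 was at 9.42 on CycC array 3 against 9.19 to 9.23 on the other CycC arrays.

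Among the controls, betaCOP was at 12.40 on Luc array 1, below the other Luc arrays, which reached 12.52, and against 12.49 to 12.55 on the other 7 controls. Cog1 was at 9.27 on Luc array 4 against 8.97 to 9.10 on the other controls. Sec15 was at 8.83 on Luc array 2 against 8.77 to 8.78. Srp68 was at 11.75 on GFP array 3 against 11.81 to 11.82, and Sec22 at 10.93 on GFP array 4 against 11.04 to 11.06.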

How the results depend on the processing

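Of 3362 values of called genes under all alternatives, 3202 kept their direction and side of the threshold, 160 missed the threshold with the same direction and 0 reversed. Cdk8 against CycC had 1 call in place of 0 with each array centred on its median, with array weights and with a mean-variance trend. CycC against controls had 7 in place of 15 with GFP arrays alone as control, and Med13 had 8 in place of 14 with Luc arrays alone. Leaving out each array in turn gave 1 to 10 calls for Cdk8, 9 to 16 for CycC, 23 to 26 for Med12, 10 to 16 for Med13 and 30 to 37 between the pairs; the cause was not tested. Over all genes, Cdk8 calls fell to 538 and 623 without Cdk8 array 1 or 2, against 1113. Med12 against Med13 gave 88 with array weights, 33 with only those groups fitted, and 25 and 34 without Med12 array 3 and Med13 array 4, against 52. Cdk8 against CycC gave 3, against 6, with only those groups or without CycC array 1 or 2, and GFP against Luc gave 4 to 12, against 2, under 7 settings. Arrays with the same replicate number correlated over 0.1 in 25 of 50 pairs (-0.24 to 0.44), with a median of 0.09 against -0.04 for other pairs, and 12 of 22 arrays correlated best with their own number. This hints at shared numbers in part of the arrays (all 4 Med13 and GFP pairs were over 0.1). With 2 arrays in the Cdk8 group their correlations mirror each other, so its pairs, the lowest of -0.24 among them, are no independent check. Outside Cdk8 pairs ran down to -0.11. The labels tie nothing to the number and not every pair was over 0.1, so the numbers were not taken as pairs. With the replicate block Cdk8 had 14 calls in place of 9. Genes dim on these arrays have compressed differences, and the 2 Cdk8 arrays give the widest errors.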
